A study of Mus musculus with 52 samples.

Results

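Mouse intestinal organoids exposed to an RXR antagonist for 24 h, the interval called day 1 of the culture, were compared with organoids given the vehicle DMSO for the same time. Intestinal organoids are small epithelial structures grown from stem cells in a gel, with crypt-like buds and a lumen. The comparison rests on 7 of the 52 libraries of the series: 4 libraries labelled RXRi and 3 labelled DMSO, all with day 1 titles. They were chosen by title alone, and duplicate libraries of a culture were averaged on the log2(RPKM + 1) scale, where RPKM is the number of reads scaled by gene length and library depth. The fourth day 1 DMSO library, duplicate 2 of culture 1, held 12443 reads and was left out, so DMSO culture 1 rests on 1 library.

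Every culture was C57BL/6 and wild type, from male littermates aged 8 weeks, and RNA was purified in duplicate from 2 cultures, numbered 1 and 2 here as in the titles. All groups were seeded as single cells, 50000 per well with 3 wells pooled, so day 1 describes organoids in their first day of regrowth. From day 0 to day 3 all groups, vehicle included, grew in ENR, a medium named for its EGF, Noggin and R-spondin, to which 3 additions were made: CHIR99021 (3 µM), a GSK3B inhibitor, Y-27632 (10 µM), a ROCK inhibitor, and medium conditioned by Wnt3a-producing cells (20%). RXRi was given at 5 µM at day 0; a parallel group received 10 µM all-trans retinoic acid (atRA), an agonist of retinoic acid receptors, and day 0 DMSO libraries were also sequenced. The antagonist is named only as RXRi, and its effect was measured at 1 dose. On day 3 the treatments were repeated as the medium was changed to ENR alone, so the day 4 and 5 libraries used below differ from day 1 in time, dosing and medium together; for the day 3 libraries, taken at 72 h, the labels do not say whether they precede that change.

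The retinoid X receptors (Rxra, Rxrb and Rxrg) are nuclear receptors that bind DNA mostly as the obligate partner of other receptors. Those partners include the retinoic acid receptors, the vitamin D receptor, the PPARs, the liver X receptors, the bile acid receptor FXR and the pregnane X receptor, and each pair controls its own set of genes. In the small intestine such pairs govern lipid uptake and export, vitamin A handling and the maturation of absorptive cells, and an RXR antagonist can therefore touch many of these programmes at once.

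The 7 libraries held 16048671 to 21189972 reads and 15162 to 15603 genes above 0. A count of 3 reads in a 1 kb gene equals 0.142 to 0.187 RPKM in them. The mean absolute log2 difference over genes was 0.093 to 0.12 between duplicates, 0.126 to 0.16 between cultures of a group and 0.293 to 0.328 between the groups. No pair of libraries was identical. Libraries were epithelial by their markers: 12 epithelial identity genes such as Epcam, Cdh1 and Krt8 summed to 10200 to 10800 RPKM with DMSO and 12500 to 13500 with RXRi. That sum weights the most abundant genes, and taken gene by gene 6 of the 12 fell and 1 rose, as given below. Fibroblast markers summed to 13.5 to 21.3 RPKM with DMSO and 7.34 to 11.5 with RXRi, 14 of 16 were under 1 RPKM in all 7 libraries, and Col3a1, Dcn, Fbn1, Lum and Thy1 were at 0. Immune markers (4.76 to 6.41 RPKM with DMSO and 4.33 to 6.16 with RXRi; Ms4a1, Cd4, Cd8a, Adgre1 and Tyrobp at 0) and endothelial markers (5.03 to 6.1 with DMSO and 2.78 to 4.66 with RXRi; Cdh5, Cldn5 and Emcn at 0) were low throughout. The part of the lower fibroblast and endothelial sums in the results was not tested.

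Within 1 day the antagonist lowered a set of absorptive and surface genes to a small share of their vehicle level and raised amino acid stress genes together with genes of regenerating and squamous epithelium. Of 12443 tested genes, 2537 (20.4%) passed limma's test with Benjamini-Hochberg adjustment at 0.05: 1302 (10.5%) rose and 1235 (9.93%) fell. The difference had the same sign in both cultures for 9372 of the 12443 tested genes (75.3%), as the plot of the cultures shows; the 2537 called genes, chosen on the mean of these cultures, all did. Falls were the larger changes: 315 genes (2.53%) fell and 178 (1.43%) rose by at least 2-fold on the log2(RPKM + 1) scale. The median over all tested genes was -0.004 on that scale. The shares of 10.5% higher and 9.93% lower are the background for every list count below. Fold changes are given below as a log2 difference, meaning RXRi minus DMSO on log2(RPKM + 1) ± SE with 2 cultures per group. The SE comes from a spread shared with all 13 groups of the series, and for the stress genes it is wider than the 4 cultures alone would give. The count depends on that choice and on the cultures: fitted on the 2 groups alone it was 3901, and it was 1373 without culture 1 of DMSO and 1457 without culture 2 of RXRi.

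**Figure D1:**
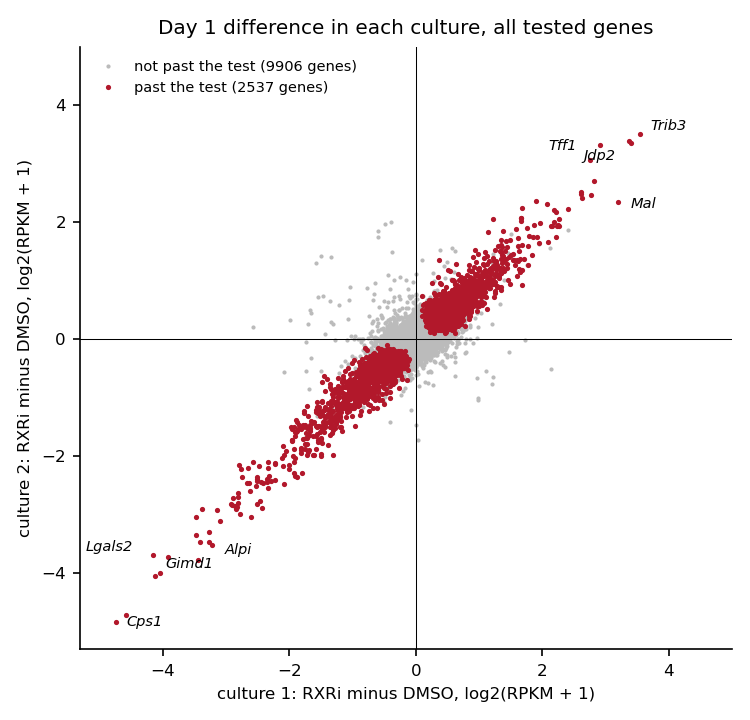
Log2 difference between RXRi and DMSO on day 1 in culture 1 (x axis) and culture 2 (y axis), both on the log2(RPKM + 1) scale, for all tested genes. Red points mark the 2537 genes past the test, which all lie below 0 on both axes or above 0 on both, and grey points mark the rest.

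The promoters below show which short sequences sit upstream of genes at both ends of the list. They are RefSeq sequences on GRCm38.p6, 250 bases before to 50 after the annotated start, printed in the direction of the gene. The motifs, and the genes shown for them, were picked with the expression values known. The first set holds the stress element TGATGNAA (the core bound by ATF4 with C/EBP partners), searched on both strands and shown in capitals, in 4 of the strongest rises: Trib3 (chr2:152344011-152344310, minus strand), Chac1 (chr2:119350992-119351291, plus), Jdp2 (chr12:85599166-85599465, plus) and Vldlr (chr19:27216770-27217069, plus).
Trib3: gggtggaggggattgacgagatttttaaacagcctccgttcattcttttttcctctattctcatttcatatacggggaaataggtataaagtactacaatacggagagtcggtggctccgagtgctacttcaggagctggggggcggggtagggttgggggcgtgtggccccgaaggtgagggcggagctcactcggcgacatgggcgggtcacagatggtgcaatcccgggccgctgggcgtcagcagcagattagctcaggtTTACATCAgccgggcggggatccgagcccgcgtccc
Chac1: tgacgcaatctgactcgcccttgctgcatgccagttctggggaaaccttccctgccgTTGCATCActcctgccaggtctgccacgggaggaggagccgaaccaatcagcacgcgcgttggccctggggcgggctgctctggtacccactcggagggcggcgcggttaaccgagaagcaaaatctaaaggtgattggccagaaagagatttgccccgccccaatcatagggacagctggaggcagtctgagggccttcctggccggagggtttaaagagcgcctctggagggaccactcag
Jdp2: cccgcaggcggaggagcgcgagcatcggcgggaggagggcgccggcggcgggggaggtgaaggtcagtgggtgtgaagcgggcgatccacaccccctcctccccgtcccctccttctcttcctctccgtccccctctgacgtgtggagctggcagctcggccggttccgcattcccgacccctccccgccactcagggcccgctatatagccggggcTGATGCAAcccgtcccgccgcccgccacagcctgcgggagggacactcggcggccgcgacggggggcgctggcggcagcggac
Vldlr: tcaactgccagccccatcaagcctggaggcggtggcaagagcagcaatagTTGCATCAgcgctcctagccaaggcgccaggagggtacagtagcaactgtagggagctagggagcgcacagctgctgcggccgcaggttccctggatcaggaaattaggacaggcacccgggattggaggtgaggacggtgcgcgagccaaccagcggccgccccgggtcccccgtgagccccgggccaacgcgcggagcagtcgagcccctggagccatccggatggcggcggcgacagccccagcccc

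The second set holds CAAAGTCCA, the element of the enterocyte regulator HNF4, again searched on both strands and in capitals, in 3 of the strongest falls: Alpi (chr1:87101557-87101856, minus strand), Gimd1 (chr3:132629596-132629895, plus) and Cyp2c65 (chr19:39060756-39061055, plus).
Alpi: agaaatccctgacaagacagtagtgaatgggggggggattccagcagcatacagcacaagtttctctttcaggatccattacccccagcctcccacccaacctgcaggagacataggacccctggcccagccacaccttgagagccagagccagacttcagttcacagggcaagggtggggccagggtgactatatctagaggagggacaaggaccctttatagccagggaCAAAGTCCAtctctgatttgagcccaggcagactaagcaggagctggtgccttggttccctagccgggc
Gimd1: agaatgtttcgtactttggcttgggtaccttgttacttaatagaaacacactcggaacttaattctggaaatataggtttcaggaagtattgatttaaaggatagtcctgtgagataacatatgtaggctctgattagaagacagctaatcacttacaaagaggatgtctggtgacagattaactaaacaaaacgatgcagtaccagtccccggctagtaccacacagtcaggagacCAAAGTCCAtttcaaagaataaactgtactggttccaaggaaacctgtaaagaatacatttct
Cyp2c65: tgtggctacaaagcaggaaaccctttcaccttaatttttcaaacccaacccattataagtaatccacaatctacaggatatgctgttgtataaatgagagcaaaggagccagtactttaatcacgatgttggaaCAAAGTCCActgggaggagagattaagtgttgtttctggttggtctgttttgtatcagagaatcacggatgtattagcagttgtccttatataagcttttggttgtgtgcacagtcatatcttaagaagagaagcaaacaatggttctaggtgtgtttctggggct

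Counted from the start site, the first base of the match lay at 15 in Trib3, -193 in Chac1, -33 in Jdp2 and -200 in Vldlr, and at -19 in Alpi, -13 in Gimd1 and -116 in Cyp2c65. The stress element was in 3.97% of all 32851 promoters and in 2.7% of the 9792 tested genes with a promoter. Among genes that rose at least 2-fold it was in 13 of 132 (9.85%), and among those that fell at least 2-fold in 7 of 252 (2.78%). The HNF4 element was in 0.475% of all promoters and 0.654% of tested genes, in 15 of 252 (5.95%) of the genes that fell and in 1 of 132 (0.758%) of those that rose. Nuclear receptor pairs bind direct repeats of a short site. Repeats of AGGTCA with a spacer of 1 to 5 bases were searched on both strands. GGGTCA was allowed for either copy, and also AGTTCA or else GGTTCA. The promoters of the 15 largest rises (9 with a promoter) and the 15 largest falls (12 with a promoter) had no match. Such repeats were rare, in 0.0204% to 0.266% of tested genes by spacer. Among genes that rose at least 2-fold, spacer 2 matched in 2 of 132 (1.52%, against 0.102% of tested genes), Slc45a3 and Tinagl1. Among those that fell at least 2-fold, spacer 4 matched in 1 of 252 (0.397%, against 0.0306%), Akp3. These 2 sets had no other match. A match is a description of letters in this window and not a binding site, and no match says only that these letters are not in this window.

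The 15 largest falls held metabolic enzymes, membrane proteins and defence genes of the gut epithelium. Cps1 (Entrez 227231, chromosome 1, 67122426 to 67231267 on GRCm38.p6), the first enzyme of the urea cycle, stood at 64.5, 72.9 and 72.9 RPKM in the DMSO libraries and at 1.38, 1.55, 1.25 and 1.95 in the RXRi libraries. All 4 RXRi libraries were far below the lowest DMSO library. Group means were 68.7 ± 5.91 RPKM and 1.52 ± 0.0791 (SD, n = 2 cultures), with a log2 difference of -4.79 ± 0.13. Cps1 was at 301 RPKM on day 0, so the day 1 DMSO libraries were below day 0 and the RXRi libraries far below both.

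Cyp2c55, a cytochrome P450 of the Cyp2c cluster on chromosome 19, was at 120, 152 and 144 RPKM with DMSO and at 4.2, 3.9, 3.82 and 5.61 with RXRi (-4.65 ± 0.20). Its neighbour Cyp2c65 fell by 3.60 ± 0.19. The 2 genes are close relatives, and reads shared between them could have been split in the counting. Gimd1, which encodes a GIMAP-type GTPase domain, was at 25.3, 25.6 and 26.9 RPKM with DMSO and 0.729, 0.328, 1.15 and 0.263 with RXRi, a log2 difference of -4.08 ± 0.11.

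Lgals2, a galectin of the gut epithelium, had one of the highest vehicle levels among the large falls. It stood at 699, 702 and 748 RPKM with DMSO and at 35.4, 41.2, 54.3 and 56.1 with RXRi (-3.92 ± 0.18). Both RXRi libraries of culture 1 were below both of culture 2, and all 4 were far below DMSO. Lypd8, a secreted protein that keeps flagellated bacteria off the epithelium, was at 223, 241 and 240 RPKM with DMSO and 11.7 to 14.4 with RXRi (-4.02 ± 0.28). Cldn15, a pore-forming claudin of the intestinal tight junction, was at 46.3, 41.2 and 43.3 RPKM with DMSO and 3.24 to 4.98 with RXRi (-3.14 ± 0.14). Tm4sf20 fell by 3.82 ± 0.13, Ms4a10 by 3.11 ± 0.19 and Tmem238l by 3.41 ± 0.14, all membrane proteins. Agmat, an agmatine hydrolase, fell by 3.43 ± 0.25.

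Epithelial defence genes were in the same group. Ccl25, the chemokine that draws lymphocytes to the small intestine, was at 28.9, 32.1 and 31.9 RPKM with DMSO and 2.05, 2.14, 1.76 and 2.19 with RXRi (-3.37 ± 0.17). Nlrp6, an innate sensor of the gut epithelium, was at 17.5 to 18.8 RPKM with DMSO and 0.874 to 1.17 with RXRi (-3.28 ± 0.18). Ifi27l2b, an interferon-inducible gene, fell by 3.25 ± 0.22. Of the 30 genes with the largest changes, 28 kept their direction and call under every alternative processing. The exceptions were Tff1, which dropped out when the nearly empty library was kept (log2 difference 1.19), and Ndrg1, which dropped out without culture 1 of DMSO (2.39, adjusted p = 0.054 by limma).

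**Figure D2:**
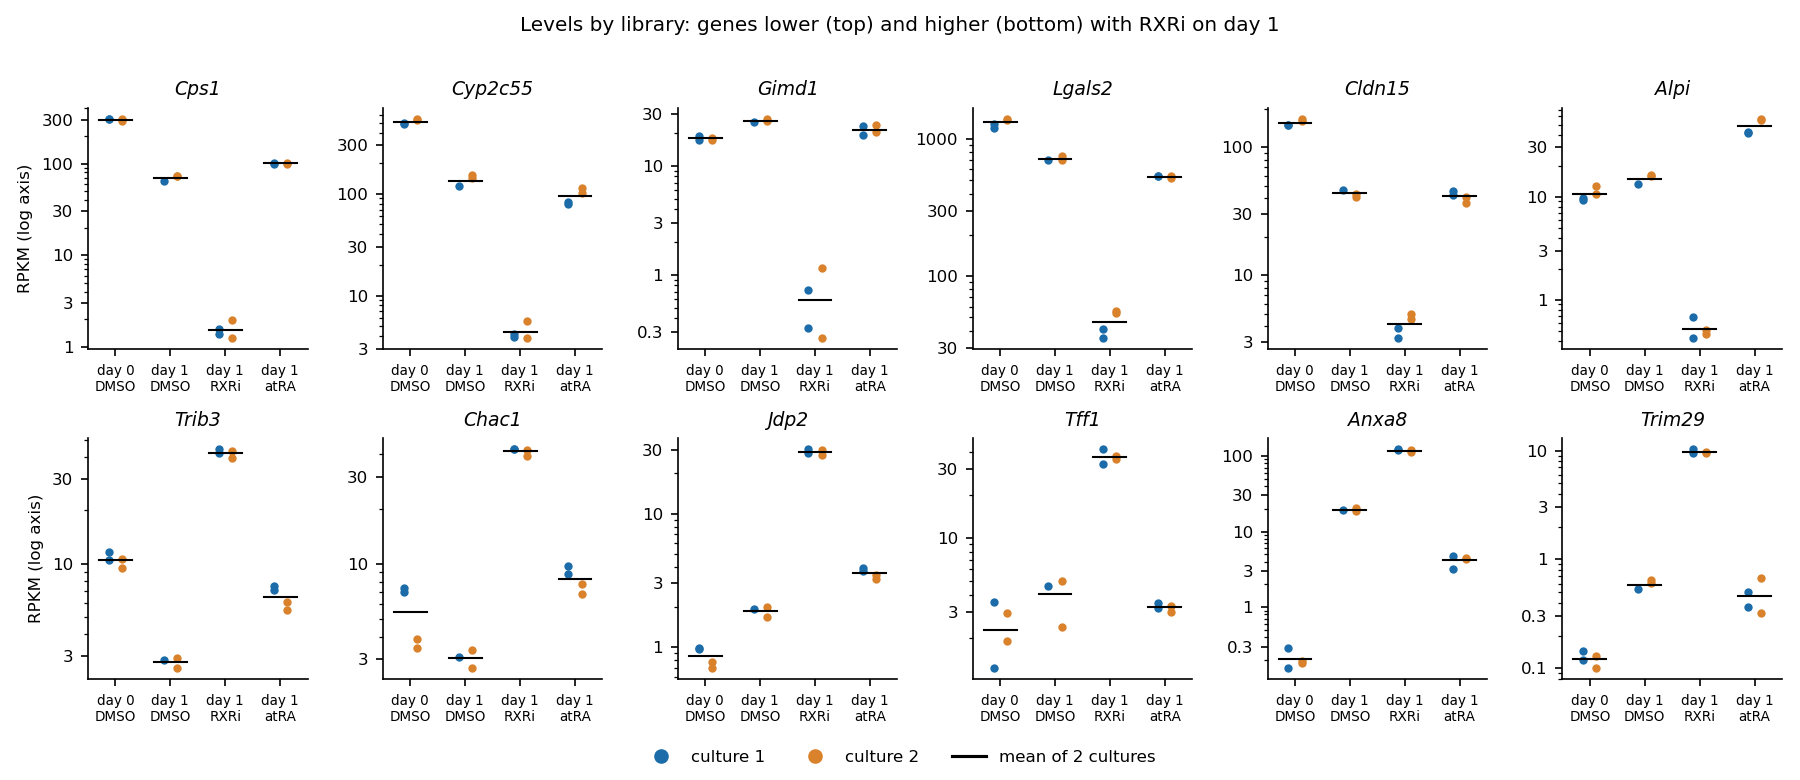
RPKM of 12 genes on log axes, each with its own range, in day 0 DMSO, day 1 DMSO, day 1 RXRi and day 1 atRA. Points are libraries coloured by culture and black bars are the means of both cultures; all RXRi libraries lie below every other library shown for Cps1, Cyp2c55, Gimd1, Lgals2, Cldn15 and Alpi, and higher than every other for the remaining 6 genes.

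Mature enterocyte genes were lower as a group. Of 32 measured genes on the enterocyte list 17 fell and 0 rose, with a median of -1.04 against -0.004 for all tested genes; with each of the 4 cultures left out in turn, 15 to 17 fell. Alpi, intestinal alkaline phosphatase of the brush border, was at 13.4, 15.7 and 16.4 RPKM with DMSO and 0.424, 0.674, 0.461 and 0.507 with RXRi (-3.37 ± 0.17). Its close relative Akp3 may share reads with it. Mep1b, a brush border protease, was at 7.17 to 9.06 RPKM with DMSO and 0.109 to 0.247 with RXRi (-2.89 ± 0.14). Prap1 fell by 2.75 ± 0.21, and Mttp, which loads fat onto lipoproteins, by 1.60 ± 0.17. In bulk RNA, fewer cells of a type and less RNA of a gene per cell cannot be told apart, here and in each cell type list below. Of the 12 epithelial identity markers 6 fell and 1 rose (median -0.38), and 2 fell without culture 1 of RXRi. Vil1, a microvillus protein, fell by 0.58 ± 0.09 while Krt19, a simple epithelial keratin, rose by 0.75 ± 0.13. The identity gene that moved most was Cdx1, an intestinal transcription factor, which went from 122 to 130 RPKM with DMSO to 27.9 to 34.5 with RXRi (-1.96 ± 0.22).

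Stem cell genes fell in the same libraries. Of 18 listed genes 10 fell and 0 rose, with a median of -0.78; 7 or 8 fell with a culture left out. Msi1, an RNA-binding protein of crypt progenitors, was at 4.82, 5.31 and 4.7 RPKM with DMSO and 0.394, 0.401, 0.429 and 0.799 with RXRi (-1.98 ± 0.21). Smoc2 was at 53.2 to 58 RPKM with DMSO and 14 to 15.8 with RXRi (-1.84 ± 0.19). Lrig1, a brake on EGF receptors, fell by 1.03 ± 0.12, and Aqp4, a water channel, by 1.27 ± 0.16. Ascl2, the Wnt-driven master regulator of crypt stem cells, fell by 1.47 ± 0.28. Lgr5, the R-spondin receptor that defines these cells, was at 7.02 to 7.67 RPKM with DMSO and 3.18 to 3.6 with RXRi (-0.92 ± 0.24). Its groups did not overlap, but the call was lost without culture 1 of DMSO (-0.87, adjusted p = 0.088 by limma), culture 1 of RXRi (0.074) or culture 2 of RXRi (0.051). On the Wnt target list 4 of 13 fell and 1 rose, and with a culture left out 1 or 2 fell and 0 rose, the lowest count being without culture 1 of either group.

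Proliferation genes did not pass the adjusted test in either direction, but the S phase count depended on the fit. Of 23 S phase genes 0 passed limma's adjusted test and 0 passed with limma-voom on the recovered reads, while 7 were lower at an unadjusted p under 0.05; 22 of the 23 were negative, with a median of -0.31. When only the 2 groups were fitted 15 fell, and with duplicates as separate values 5 fell. With median-of-ratios scaling, with the culture as a block, or with the nearly empty library kept, 1 fell. Of 24 mitosis genes 0 passed limma's or limma-voom's adjusted test, with 1 higher at an unadjusted p under 0.05 and a median of 0.04; 2 rose and 1 fell when only the 2 groups were fitted, 1 rose with separate duplicates and 2 rose with the nearly empty library kept. Mcm6, a replicative helicase subunit, was at 88.2 to 89.1 RPKM with DMSO and 64.9 to 69.8 with RXRi (-0.39 ± 0.16, adjusted p = 0.089 by limma); it passed when only the 2 groups were fitted and with separate duplicates (adjusted p = 0.024).

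Secretory lineage lists had few calls, and the goblet and enteroendocrine counts were near the background of 10.5% higher and 9.93% lower. Of 17 goblet cell genes 3 fell and 1 rose (median -0.18). Muc13, a membrane mucin also made by absorptive cells, was at 72, 82.8 and 86 RPKM with DMSO and 14.9, 14.3, 18.1 and 19.2 with RXRi (-2.17 ± 0.12). Galnt12, which starts mucin glycosylation, fell by 0.70 ± 0.11, Muc4 fell by 0.92 ± 0.18, and Sytl2, a secretory granule protein, rose by 1.10 ± 0.18. Of 14 Paneth cell genes 4 fell and 1 rose (median -0.40); 1 fell without culture 1 or 2 of DMSO or without culture 1 of RXRi, and 0 rose without culture 1 of DMSO or without either culture of RXRi. Itln1, an intelectin of Paneth and goblet cells, was at 493, 526 and 494 RPKM with DMSO and 204, 194, 267 and 249 with RXRi (-1.14 ± 0.21). Of 25 enteroendocrine genes 4 rose and 2 fell (median -0.05), and 0 rose without culture 1 of DMSO or culture 2 of RXRi, while 6 rose without culture 1 of RXRi. Neurog3, which commits progenitors to the enteroendocrine fate, was at 43.3 RPKM in DMSO culture 1, 69.1 and 67.3 in culture 2, 95.1 and 96.2 in RXRi culture 1 and 163 and 173 in RXRi culture 2 (1.21 ± 0.33). Both treatments were higher in culture 2. The Neurog3 call was lost when only the 2 groups were fitted (adjusted p = 0.20 by limma). It was also lost without culture 1 of DMSO (log2 difference 0.89) and without culture 2 of RXRi (0.80). Of 6 measured tuft cell genes 2 rose, Avil (1.34 ± 0.15) and Ptgs1 (0.83 ± 0.10), both at low levels; without culture 1 of DMSO Pou2f3, the tuft cell master factor, passed as lower (-0.39, adjusted p = 0.048 by limma).

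The integrated stress response gave the largest rises. In this response, phosphorylation of the initiation factor eIF2 slows translation while ATF4 is made and switches on genes for amino acid uptake, amino acid synthesis and redox defence. Of 20 measured genes on its list 14 rose and 0 fell, all 20 had positive differences, and the median was 0.96. With a culture left out 11 to 13 rose and 0 fell.

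Trib3 (Entrez 228775, chromosome 2, 152337425 to 152344060), a pseudokinase that restrains the response, was at 2.83, 2.55 and 2.91 RPKM with DMSO and 44.5, 42.5, 43.3 and 39.7 with RXRi. Chac1 (Entrez 69065, chromosome 2, 119351242 to 119354326), a glutathione-degrading enzyme, was at 3.08, 2.68 and 3.38 RPKM with DMSO and 42.4, 42.4, 41.8 and 38.9 with RXRi. In both genes all 4 RXRi libraries were more than 10 RPKM above every DMSO library. The log2 differences were 3.52 ± 0.64 (adjusted p = 0.00074) and 3.39 ± 0.47 (adjusted p = 7.5e-05) by limma. Their day 0 means were 10.5 and 5.44 RPKM, both between the 2 day 1 groups.

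Other genes of the list rose as well. Vldlr, a lipoprotein receptor, was at 1.38 to 1.82 RPKM with DMSO and 10.9 to 11.7 with RXRi (2.32 ± 0.40). Cth, which makes cysteine, was at 12.4 to 16.7 RPKM with DMSO and 52.1 to 60.3 with RXRi (1.83 ± 0.22). Psat1, an enzyme of serine synthesis, rose by 0.97 ± 0.16. Atf4 itself had a modest change in mRNA, from 220 to 247 RPKM with DMSO to 345 to 379 with RXRi (0.64 ± 0.11). Several genes outside the list were among the 15 largest rises. Aldh1l2, a mitochondrial folate enzyme, was at 0.2 to 0.294 RPKM with DMSO and 5.79 to 7.46 with RXRi (2.62 ± 0.39). The amino acid transporters Slc7a3 (0.155 to 0.254 against 4.34 to 5.03 RPKM, 2.20 ± 0.19) and Slc6a9 (5.94 to 7.07 against 29.4 to 38.7 RPKM, 2.20 ± 0.20) rose, as did Adm2, a peptide hormone of the adrenomedullin family (2.55 ± 0.40), and Dynap (2.19 ± 0.40). Jdp2, a partner of AP-1 factors, was at 1.92, 1.69 and 2 RPKM with DMSO and 28.3, 30.4, 29.8 and 27.7 with RXRi (3.38 ± 0.33).

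Chaperones of the unfolded protein response did not move with these genes. Of 18 listed 1 rose and 2 fell, with a median of -0.16. These counts were near or below the background of 10.5% higher and 9.93% lower. Pdia6, a disulfide isomerase, was at 144 to 150 RPKM with DMSO and 114 to 118 with RXRi (-0.35 ± 0.08), and Canx, a lectin chaperone, fell by 0.32 ± 0.08. Sel1l, of the degradation machinery, rose by 0.35 ± 0.12 at an adjusted p of 0.05 by limma. With a culture left out 0 rose and 0 to 2 fell, 0 of them without culture 1 of DMSO; Pdia6 was then at -0.33 (adjusted p = 0.063).

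Genes of fetal-like and regenerating epithelium rose. Of 19 measured 7 rose and 1 fell (median 0.79), and 4 to 6 rose with a culture left out, 4 of them without culture 2 of DMSO. Anxa8 (Entrez 11752, chromosome 14, 34085979 to 34100571), an annexin of regenerating epithelium, was at 19, 20.4 and 18.5 RPKM with DMSO and 123, 120, 112 and 119 with RXRi (2.56 ± 0.26), against a mean of 0.204 on day 0. The day 1 DMSO libraries were already far above day 0, and the RXRi libraries were higher still. Ly6d, a surface protein with close relatives in the Ly6 family, was at 12.9 to 18 RPKM with DMSO and 62.2 to 67.5 with RXRi (2.09 ± 0.59). Anxa2, another annexin, rose by 1.19 ± 0.23.

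Genes of squamous, layered epithelium were higher too: 9 of 21 rose and 0 fell, with a median of 0.44; 5 to 7 rose with a culture left out, 5 of them without culture 2 of DMSO. The largest difference on this list was 2.13. Lor, loricrin of the cornified envelope, was at 2.69 to 3.19 RPKM with DMSO and 10.6 to 17.6 with RXRi (1.84 ± 0.18), but did not pass when the nearly empty library was kept (0.93). Cnfn, cornifelin, rose by 1.64 ± 0.32, and lost its call when only the 2 groups were fitted (adjusted p = 0.066 by limma). Dsg3, a desmosomal cadherin, rose by 1.12 ± 0.11 from under 1 RPKM. Among the 15 largest rises, Trim29 (0.537, 0.61 and 0.654 RPKM with DMSO; 10.3, 9.49, 9.79 and 9.42 with RXRi; 2.76 ± 0.17), a factor of basal epithelia, and Mal, a membrane raft protein, at 0.79 to 1.69 RPKM with DMSO and 11.5 to 15.7 with RXRi (2.77 ± 0.19), were also higher. Tff1, the trefoil peptide of the stomach surface, was at 4.59, 2.37 and 4.99 RPKM with DMSO and 41.6, 32.9, 35.7 and 37.5 with RXRi (2.91 ± 0.23). Of 11 listed stomach genes 1 rose, Tff1, and 2 fell, while 8 had positive differences (median 0.02). The count of rises was near the background of 10.5% higher, and 9.93% of all tested genes fell. Limma-voom gave 2 rises and 2 falls, and the culture as a block 2 rises and 1 fall. With a pseudocount of 0.1, the 2 groups alone or separate duplicates 3 rose and 2 fell. The summed level of the stomach list was 69.4 to 73.1 RPKM with DMSO and 177 to 201 with RXRi. Such a sum weights the most abundant genes and does not describe the list as a whole. Pgc, pepsinogen C, was at 0.773 to 1.25 RPKM with DMSO and 0.111 to 0.27 with RXRi (-0.71 ± 0.10).

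Some growth factor and matrix genes were among the rises, against a background of 10.5% of all tested genes higher and 9.93% lower. Of 13 EGF family ligands, receptors and feedback genes 5 rose and 1 fell (median 0.53), and 1 rose without culture 1 of either group. Spry2, a feedback inhibitor of receptor tyrosine kinases, was at 7.93, 8.66 and 9.49 RPKM with DMSO and 23.9, 22.6, 22.3 and 22.4 with RXRi (1.33 ± 0.10). Of 17 basement membrane and integrin genes 4 rose and 0 fell (median 0.22), and 1 rose without culture 1 of DMSO and 2 without culture 1 of RXRi; Lamc1, a laminin chain, rose by 0.86 ± 0.14. Of 17 YAP target genes 3 rose and 0 fell (median 0.26), a count of rises near the background of 10.5% higher. With limma-voom 2 rose, and 9 rose and 2 fell when only the 2 groups were fitted. Amotl1, a partner of the YAP pathway, rose by 0.96 ± 0.14.

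**Figure D3:**
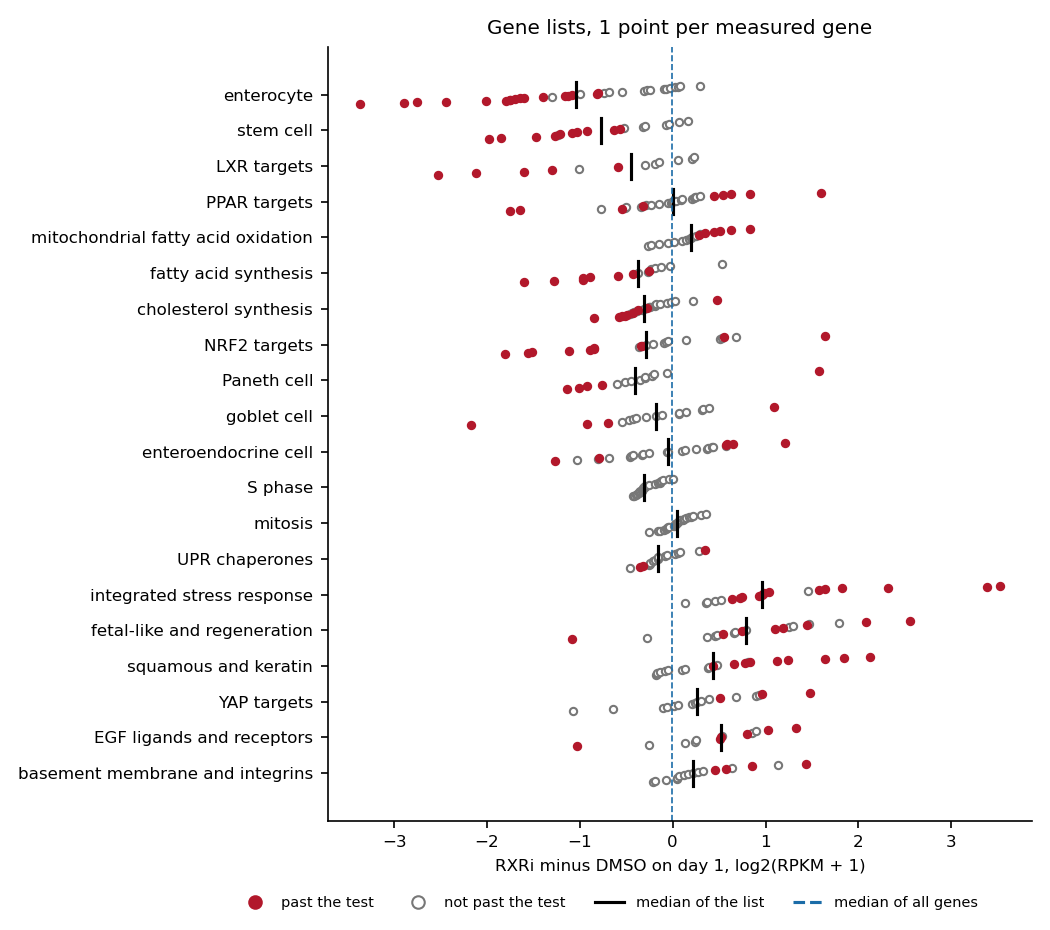
Log2 difference between RXRi and DMSO on day 1 (x axis, log2(RPKM + 1) scale) for the measured genes of 20 lists (y axis), 1 point per gene, filled where the gene passed the test. Black ticks are list medians and the dashed line is the median of all tested genes, -0.004; the integrated stress response has no point below 0, and the enterocyte and stem cell lists have no filled point above it.

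Some receptors that pair with RXR changed in their own mRNA, against a background of 10.5% of all tested genes higher and 9.93% lower. Vdr, the vitamin D receptor, was at 18.2, 18.6 and 17.8 RPKM with DMSO and 4.47, 4.91, 4.51 and 4.61 with RXRi (-1.77 ± 0.10). Nr1i2, the pregnane X receptor, was at 14.9 to 15.8 RPKM with DMSO and 4.02 to 4.27 with RXRi (-1.67 ± 0.10), and did not pass when the nearly empty library was kept (-0.65). Ppard rose by 0.62 ± 0.12. In all, 4 of 13 partner receptors rose and 3 fell; with any 1 of the 4 cultures left out 1 or 2 rose and 2 fell.

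Among the RXR and RAR genes themselves, Rarg, a retinoic acid receptor abundant in squamous epithelia, was at 1.59, 1.56 and 1.83 RPKM with DMSO and 5.66, 6.35, 6.45 and 5.54 with RXRi (1.41 ± 0.23). Rara was at 6.88 to 7.03 RPKM with DMSO and 4.92 to 6.24 with RXRi (-0.32 ± 0.10), a call lost without culture 1 of DMSO (adjusted p = 0.16 by limma), culture 2 of DMSO (0.10) or culture 1 of RXRi (0.26), and a difference of opposite sign when the nearly empty library was kept (0.43). Rxra was at 9.4 to 9.93 RPKM with DMSO and 10.8 to 11.2 with RXRi (0.19 ± 0.08, adjusted p = 0.13 by limma). Rxrb was at 21.7 to 24.6 RPKM with DMSO and 19.8 to 22.9 with RXRi (-0.15 ± 0.12, adjusted p = 0.44), with overlapping groups. Rarb and Rxrg were left out by the filter on low values; Rxrg was listed at 0 in all 7 libraries.

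Targets of the receptor pairs did not move as 1 block. Of 12 liver X receptor targets 5 fell and 0 rose (median -0.44). Abcg5 and Abcg8, which together pump sterols out of the enterocyte, fell together: Abcg5 from 7.61, 7.74 and 8.61 RPKM to 0.333, 0.678, 0.66 and 0.543 (-2.52 ± 0.23) and Abcg8 from 4.97, 5.22 and 6.24 RPKM to 0.415, 0.561, 0.411 and 0.465 (-2.12 ± 0.18). Npc1l1, which takes cholesterol up from the lumen, fell by 1.30 ± 0.16, and Scd1, a fatty acid desaturase, by 1.60 ± 0.31. Of 6 vitamin D receptor targets 2 fell and 0 rose. S100g, the calcium-binding calbindin of the enterocyte, was at 66.9, 59.5 and 65.5 RPKM with DMSO and 11.8, 13.2, 14 and 13.7 with RXRi (-2.21 ± 0.26). Cyp3a11, which is also a pregnane X receptor target, was at 3.71 to 6.45 RPKM with DMSO and 0.115 to 0.15 with RXRi (-2.37 ± 0.55), but missed the threshold with limma-voom (adjusted p = 0.14). Of 7 FXR targets 0 passed limma's test and 0 limma-voom's, and 2 had an unadjusted p under 0.05, both lower. A pseudocount of 0.1 gave 2 falls, the culture as a block 1, the 2 groups alone 3 and separate duplicates 2. The summed level of the list was 6.75 to 7.51 RPKM with DMSO and 1.8 to 2.21 with RXRi. Slc51a, a bile acid exporter subunit, was at 0.875 to 1.51 RPKM with DMSO and 0.153 to 0.265 with RXRi (-0.74 ± 0.26, adjusted p = 0.052 by limma), and passed in those 4 alternatives. Fgf15, the ileal hormone that restrains bile acid synthesis, was at 3.82 to 4.36 RPKM with DMSO and 0.731 to 1.14 with RXRi (-1.44 ± 0.66, adjusted p = 0.14 by limma); its 2 groups did not overlap, and it passed when only they were fitted and with separate duplicates (adjusted p = 0.025).

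PPAR target counts were near the background of 10.5% higher and 9.93% lower. Of 28 genes 5 rose and 4 fell, with a median of 0.001; with a culture left out 3 or 4 rose and 1 to 3 fell, the 1 without culture 2 of DMSO. Plin2, which coats lipid droplets, was at 31.4, 32.4 and 33.9 RPKM with DMSO and 101, 95.4, 100 and 103 with RXRi (1.60 ± 0.20). Acadl and Cpt1a, of mitochondrial fatty acid oxidation, rose by 0.83 ± 0.11 and 0.63 ± 0.09. The fatty acid binding proteins Fabp2 (77.4 to 91 RPKM with DMSO, 21.7 to 25.5 with RXRi, -1.75 ± 0.33) and Fabp1 (69.8 to 119 against 23.8 to 31.4 RPKM, -1.65 ± 0.36) fell. Both binding proteins are also on the enterocyte list, and Acadl and Cpt1a on the oxidation list that follows. Of 18 mitochondrial fatty acid oxidation genes 6 rose and 0 fell (median 0.20), with 2 to 4 rises when a culture was left out, 2 of them without culture 1 of DMSO.

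Lipid synthesis genes went the other way. Of 15 fatty acid synthesis genes 8 fell and 0 rose (median -0.38), among them Scd2 (-1.28 ± 0.15) and the desaturases Fads1 (-0.89 ± 0.14) and Fads2 (-0.97 ± 0.14). With any culture left out 5 fell. Of 25 cholesterol synthesis genes 8 fell and 1 rose (median -0.31), and 2 fell without culture 1 of DMSO and 3 without culture 2 of RXRi. Dhcr7, the last enzyme of the pathway, was at 37.5 to 41.1 RPKM with DMSO and 19.5 to 22.6 with RXRi (-0.84 ± 0.12).

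Genes that retinoic acid is known to induce were mostly low in the vehicle on day 1. Of 9 measured 3 fell and 1 rose, against a background of 9.93% lower and 10.5% higher. The list median was 0.031, and -0.069 to 0.08 with a culture left out. With limma-voom or a pseudocount of 0.1, 3 fell and 0 rose, and with median-of-ratios scaling 2 fell and 1 rose. Tgm2, a transglutaminase, was at 12.2, 12.5 and 12.8 RPKM with DMSO and 0.891, 0.752, 0.707 and 1.07 with RXRi (-2.86 ± 0.10). Cdx1, described above, was another. Lrat, which esterifies retinol, was at 0.245 to 0.343 RPKM with DMSO and 0.0116 to 0.0546 with RXRi (-0.32 ± 0.11), a call lost without any 1 of the 4 cultures (adjusted p = 0.12 to 0.17 by limma). Isx, the intestinal homeobox factor that limits vitamin A uptake, was at 0.377, 0.753 and 0.566 RPKM with DMSO and 0.5, 0.521, 0.544 and 0.765 with RXRi (0.06 ± 0.14, adjusted p = 0.79 by limma). Dhrs3, which turns retinal back to retinol, was at 1.01 to 1.65 RPKM with DMSO and 0.58 to 1.72 with RXRi (-0.16 ± 0.18). Cyp26b1, which degrades retinoic acid, was under 0.1 RPKM in all 7 libraries. With atRA, measured against the same DMSO libraries, the log2 differences were 6.63 for Isx, 3.54 for Dhrs3 and 1.49 for Cyp26b1, and 0.45 for Tgm2 and -0.20 for Cdx1. Among 23 retinoid metabolism genes 9 fell and 2 rose, and 7 or 8 fell and 0 or 1 rose with a culture left out; Bco1, which cleaves beta-carotene, was at 1.67 to 2.92 RPKM with DMSO and 0.277 to 0.787 with RXRi (-0.94 ± 0.12), a call lost when the nearly empty library was kept (-0.59, adjusted p = 0.053 by limma).

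Antioxidant and conjugation genes under NRF2 fell more often than they rose, 9 against 2 of 21 (median -0.29). With any culture left out 6 to 8 fell and 0 rose. Gsta1 was at 289, 302 and 298 RPKM with DMSO and 96.9, 104, 96.2 and 101 with RXRi (-1.56 ± 0.14), and its near copy Gsta2 fell by 1.51 ± 0.15; reads of these 2 glutathione transferases may be shared. Gstm3 fell by 1.81 ± 0.29 and Gstm1 by 1.11 ± 0.21. Of 19 p53 targets 1 rose and 2 fell, and 0 or 1 fell with a culture left out. Of 24 glycolysis and hypoxia genes 3 rose and 1 fell, 1 rose without culture 2 of DMSO or either culture of RXRi, and without culture 1 of DMSO 0 passed in either direction. The p53 counts and the glycolysis and hypoxia counts were near or below the background of 10.5% higher and 9.93% lower. Ndrg1, the largest of the glycolysis and hypoxia rises, was at 17.3 to 21.8 RPKM with DMSO and 110 to 121 with RXRi.

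Several genes of epithelial signalling to immune cells fell, against a background of 9.93% of all tested genes lower and 10.5% higher. Of 21 cytokine and chemokine genes 8 fell and 1 rose (median -0.21), and 5 fell without culture 2 of DMSO. Beside Ccl25, Ccl28, a mucosal chemokine, was at 10.3, 10.7 and 11 RPKM with DMSO and 1.6, 1.62, 2.14 and 1.65 with RXRi (-2.08 ± 0.13). Il18, an inflammasome cytokine, was the gene that rose, from 3.88 to 4.82 RPKM with DMSO to 11.6 to 15.5 with RXRi (1.41 ± 0.23). Of 22 interferon and antigen presentation genes 5 fell and 1 rose, and 3 fell without culture 2 of DMSO or culture 1 of RXRi. Irf1, an interferon-induced transcription factor, fell by 1.03 ± 0.10 and H2-D1, a class I antigen-presenting molecule with close relatives, rose by 0.38 ± 0.08.

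The antagonist and the agonist were also compared directly at day 1, which uses no DMSO library. Of 12443 genes 3208 (25.8%) differed by limma's adjusted test: 1686 (13.5%) were higher with RXRi and 1522 (12.2%) lower; the count was 2017 without culture 1 of atRA and 1250 with the nearly empty DMSO library kept, which enters through the shared spread. Genes that were higher with RXRi than with DMSO included some whose level with atRA was below DMSO. Anxa8 had a mean of 19.2 RPKM with DMSO, 118 with RXRi and 4.16 with atRA, a difference of 4.53 ± 0.26 between the 2 ligands. Cwh43, a membrane protein of the glycolipid anchor pathway, had means of 11.6, 52.6 and 3.32 RPKM in the same order (3.66 ± 0.34), Cnfn 3.78, 13.2 and 0.274 RPKM (3.49 ± 0.32), and Ly6d 14.5, 64.5 and 5.85 RPKM (3.26 ± 0.59). Sbsn had 1.45, 20.2 and 0.947 RPKM (3.45 ± 0.23).

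In the other direction, Fabp1 had a mean of 90.5 RPKM with DMSO, 27.5 with RXRi and 2940 with atRA, a difference of -6.67 ± 0.36 between the ligands. Lypd8 had means of 232, 13.4 and 832 RPKM (-5.86 ± 0.28) and Alpi 14.7, 0.514 and 48.9 RPKM (-5.03 ± 0.17). These 3 lay on opposite sides of the vehicle. Isx, with 0.517, 0.581 and 148 RPKM (-6.56 ± 0.14), differed through the atRA group. Cps1, with 68.7, 1.52 and 101 RPKM (-5.33 ± 0.13), differed mainly through the RXRi group.

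Whether the day 1 effect differed from the later effect was tested against the mean of the effects on days 3, 4 and 5. Of 12443 genes 4412 (35.5%) differed: 2763 (22.2%) had a day 1 effect that was higher (62.6% of the calls) and 1649 (13.3%) lower. Under median-of-ratios scaling the counts were 2155 higher (48.4% of the calls) and 2299 lower. A higher value can mean a smaller fall or a larger rise on day 1.

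Several stress list genes, and Adm2 beside them, stood highest above vehicle on day 1. The log2 difference of Adm2 was 2.55 on day 1, 0.86 on day 3, 0.01 on day 4 and 0.24 on day 5. That of Cth was 1.83, 1.14, -0.59 and -1.17 on the same days, and that of Trib3 3.52, 2.29, 0.77 and 1.54. Chac1 was at 3.39, 2.09, 1.24 and 2.42. Day 1 exceeded the later mean by 2.17 (adjusted p = 0.0015 by limma) for Adm2, 2.04 (9.2e-06) for Cth, 1.99 (0.044) for Trib3 and 1.47 (0.047) for Chac1. Over the 20 genes on the stress list the medians were 0.96, 0.67, 0.54 and 1.05 on days 1, 3, 4 and 5, so the list as a whole stood as high on day 5; of its genes 9 had a higher and 1 a lower effect on day 1.

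Most enterocyte genes on the list had a shallower fall on day 1 than later: 26 of 32 had a higher effect on day 1 and 0 a lower one, with medians of -1.04, -1.08, -3.98 and -4.94 on days 1, 3, 4 and 5. Lgals2 went from -3.92 to -7.97, -9.09 and -9.21, and Cldn15 from -3.14 to -5.69, -7.17 and -7.81. The Paneth cell genes Lyz1 and Defa17 had much smaller differences on day 1 than later. Lyz1, Paneth lysozyme, was at 226, 326 and 290 RPKM with DMSO and 142, 140, 218 and 210 with RXRi on day 1 (-0.60 ± 0.27, adjusted p = 0.12 by limma), and its later differences were -4.79, -6.45 and -7.49. Defa17, a defensin of a family with near-identical copies, had -0.92 on day 1 and -3.58, -6.82 and -8.87 later; its day 1 call was lost without culture 1 of DMSO (-1.03, adjusted p = 0.072 by limma), culture 2 of DMSO (-0.81, 0.14) or culture 1 of RXRi (-0.62, 0.24). Isx, near 0.5 RPKM in both groups on day 1, had a mean of 98.5 RPKM with DMSO and 0.258 with RXRi on day 3, and log2 differences of -6.30, -6.48 and -6.36 on days 3 to 5.

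Fetal-like and squamous genes had the opposite order: 0 and 16 of 19 fetal-like genes had a higher and a lower effect on day 1 than later, and 0 and 17 of 21 squamous genes. Outside these lists, Tff1 went from 2.91 to 6.40, 8.88 and 10.15, Mal from 2.77 to 5.37, 6.73 and 7.25, and Trim29 from 2.76 to 4.81, 5.85 and 5.69. Anxa8, on the fetal-like list, went from 2.56 to 3.06, 4.12 and 4.70. A few genes were on different sides of vehicle. Gsta1 was at -1.56 on day 1 and 1.30, 0.97 and 0.57 later, and Gsta2 at -1.51 and then 1.33, 0.96 and 0.45. Neurog3 was at 1.21 on day 1 and -1.78, -2.64 and -2.38 later, with the day 1 limit given above.

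**Figure D4:**
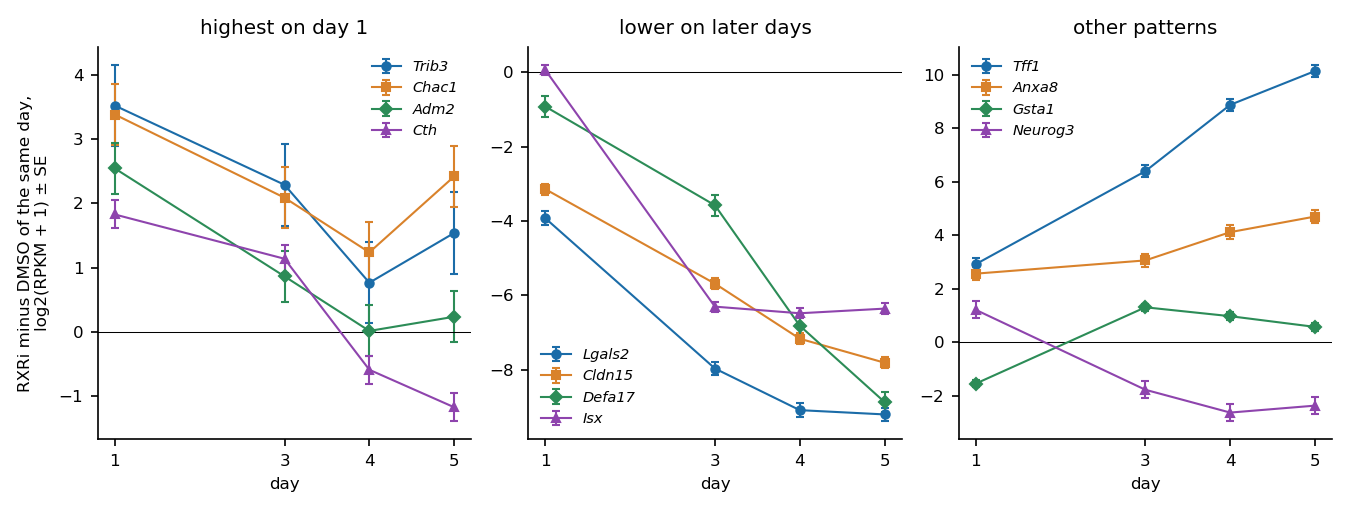
Log2 difference between RXRi and DMSO of the same day (y axis, log2(RPKM + 1) scale) on days 1, 3, 4 and 5 (x axis) for 12 genes; points are estimates over 2 cultures per group and bars are ± SE. Trib3, Chac1, Adm2 and Cth are highest on day 1, Lgals2, Cldn15, Defa17 and Isx are lower on later days, and Gsta1 and Neurog3 change sign after day 1.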

How the data were processed

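RNA-seq libraries of mouse intestinal organoids were sequenced by the authors. Per the submitters' processing notes, bcl2fastq 2.17, STAR 2.5.2b and mm10 were used; the counting tool, with its annotation and strand setting, is not given in the sources used here. The authors deposited 1 table of RPKM values, 24116 genes by 52 libraries, with no counts. Whole reads could be recovered from the RPKM steps: 100% of values above 0 were whole reads within a tolerance of 0.001, which gave the depths.

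Values were taken as log2(RPKM + 1), with a pseudocount of 1, duplicates were averaged, and limma 3.58.1 (trend and robust, R 4.3.3) was fitted on 26 culture means of 13 groups, with 13 residual degrees of freedom. The deposited RPKM were not renormalized. The test covered 12443 genes that reached 1 RPKM in 4 or more of 51 libraries and left out 11673, two-sided, with Benjamini-Hochberg adjustment and a threshold of 0.05. The duplicates of a culture are technical, and n is 2 cultures from littermates, so p-values measure the spread between these cultures. The code was tested on simulated data. Group comparisons were RXRi with DMSO and with atRA on day 1, and the day 1 effect with the mean of days 3, 4 and 5; comparisons of RXRi and atRA with DMSO share their controls.

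Named genes are the 15 largest changes each way (same sign in both cultures, a mean of at least 2 RPKM in a group), up to 4 members with the smallest p per list, all retinoid receptor and retinoic acid genes, and the 5 largest each way of the other comparisons. The samples compared, the gene lists and the motifs were chosen with earlier results of these data known, and a list has no test of its own. Alternatives covered the pseudocount (0.1), the filter, scaling, the nearly empty library, each culture left out and the culture as a block. Limma-voom on recovered reads and a fit with duplicates as separate values were added after seeing the data. The culture number in the titles was taken to mark the same animal's culture in every group, which the labels do not spell out; the deviations of same-numbered cultures had a median correlation of 0.149 over 78 pairs of groups (-0.317 to 0.759, 47 above 0.1) and 0.0036 between the day 1 RXRi and DMSO groups. A few single-gene results are not reported here.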

Additional observations from a re-analysis of the deposited data

Results flagged for a closer look

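The RXRi effect on day 1 differed from the mean of its effects on days 3, 4 and 5 in 4412 genes by limma's adjusted test of the difference itself, 2763 with a higher and 1649 with a lower value on day 1. The values below are the day 1 log2 difference from vehicle minus the later mean.

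Genes with the largest positive values had small or absent changes on day 1 and low levels with RXRi later: Isx at 6.45, the regenerating protein Reg1 at 5.64, Lyz1 at 5.64, and the defensins Defa3 and Defa17 at 5.50 each. Lgals2 (4.83) and Cldn15 (3.75) fell on day 1 and stood lower still relative to vehicle later. Neurog3 (3.48) was on opposite sides of vehicle, though its day 1 call depended on the fit and on single cultures.

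Genes with the largest negative values were those that rose more later: Tff1 at -5.56, the mast cell protease gene Mcpt2 at -4.78, the surface antigen Psca at -4.13, the cornified envelope gene Ivl at -3.98 and the fatty acid binding protein Fabp5 at -3.94. Mal (-3.68), Trim29 (-2.69) and Anxa8 (-1.40) had rises on day 1 that were larger later. Gsta1 (-2.50) and Gsta2 (-2.43) were below vehicle on day 1 and above it later.

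Adm2 and genes of the stress list had positive values: Adm2 2.17, Cth 2.04, Trib3 1.99, Chac1 1.47, Psat1 0.63 and Atf4 0.34. Time, the repeated dose and the medium change cannot be told apart in the later mean.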

How the results depend on the processing

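Of 132 called genes among the 163 named in the RXRi and DMSO comparison, 85 kept direction and call under every alternative. The count of 2537 was 3901 when only the 2 groups were fitted and ranged from 1373 to 1722 when 1 culture was left out. With the culture as a replicate block it was 2931 (1500 higher, 1431 lower), and 1 named call was lost. The other settings stayed within 1.5 times of it: limma-voom gave 2216 and separate duplicates 2841. The count for RXRi against atRA was 3208, 1250 with the nearly empty library kept, and 2017 to 2322 with 1 culture left out; that for day 1 against later was 3243 to 3448 with 1 culture left out. Keeping the nearly empty library moved the median of all genes from -0.004 to 0.267 and gave 2302 higher and 884 lower genes; the list medians of Wnt targets and Paneth cells became 0.36 and 0.04, and 7 YAP targets rose. Keeping it also changed the sign of 12 named genes. Of them 5 were called in the reported fit: Nr4a2 moved to -0.22, Rara to 0.43, Sesn1 to 0.24, Tcf7 to 0.70 and Vim to 0.13. Isx, not called in the reported fit, moved to -1.77 and passed with that library kept (adjusted p = 0.049 by limma). Another 6 genes, called in neither fit, moved across 0, Bub1b to 1.11. Acta2, Cd68, Dhrs3 and Isx, all uncalled and near 0, crossed 0 under other settings. The cause was not tested; 3 reads in a 1 kb gene equal 241 RPKM in that library. Leaving out culture 1 of DMSO cost 30 named calls, the most of any setting.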
